A study of Rattus norvegicus with 6 samples.

Results

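Oxidative phosphorylation is represented here by 89 nuclear genes of the respiratory chain, the electron transfer flavoprotein and ATP synthase, measured by RNA-Seq in rat lateral ventricular choroid plexus at embryonic day 15 (E15) and in the adult (6 weeks). The genes were taken by symbol (Nduf, Sdh, Uqcr, Uqcc, Cyc1, Cycs, Cox4 to Cox8, Cox10 to Cox19, Atp5, Etf, Surf1 and Sco prefixes) from the 10653 identifiers that the authors had called different between the ages in these same 6 libraries, out of 29479 identifiers counted. The choice therefore rests on the contrast that is described below, so every difference between the ages is given as a description, without a test, and supports nothing by itself. Members of the same families that the authors did not call carry no symbol in the files used and were not analysed here. All animals were untreated Sprague-Dawley rats. At each age 3 RNA pools were sequenced, each made from both lateral ventricular plexuses of 10 animals, and the plexus was taken whole, with its stroma, vessels and blood.

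Complexes I to IV of the inner mitochondrial membrane pass electrons from NADH and succinate to oxygen, complexes I, III and IV pump protons, and ATP synthase uses the return of the protons to make ATP. The electron transfer flavoprotein and its dehydrogenase bring in electrons from fatty acid and amino acid oxidation, and cytochrome c shuttles them from complex III to complex IV. The complexes are built from nuclear subunits, which are listed here, and from subunits of the mitochondrial genome, which the authors' counting of nuclear genes left out. Choroid plexus epithelium is known as a tissue rich in mitochondria, with ion pumps that use ATP to secrete cerebrospinal fluid.

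Libraries held between 17875089 and 19204440 counts on genes. Among the pools of an age, E15 replicate 1 stood apart from the other E15 pools (Spearman's rho 0.979 and 0.982 over the genes tested, against 0.996 between E15 replicates 2 and 3). All 8 named markers of choroid plexus epithelium were higher in the adult, their summed level being 22982 to 28348 normalised CPM (counts scaled to a common library size) at E15 and 262022 to 309621 in the adult. Most of that sum was *Ttr*, at 20227 to 24950 at E15 and 188899 to 237950 in the adult. Fold changes of the 8 ranged from 2.76 (*Aqp1*) to 190 (*Enpp2*), so the sum is no measure of the amount of epithelium. Named markers of red cells (3), endothelium (5), developing neurons (6) and proliferating cells (3) were all higher at E15, and so were 4 of 6 mesenchyme markers, the other 2 being higher in the adult. Of the oligodendrocyte markers, *Mobp* was at 0.510, 0.600 and 1.14 normalised CPM at E15 against 42.0, 12.6 and 6.63 in the adult and *Mag* at 0, 0 and 0.204 against 11.5, 3.10 and 0.784, with adult replicate 1 the highest for both, whereas *Mog* was at 16.8, 9.87 and 10.8 against 7.64, 6.74 and 2.64. In whole tissue, fewer cells of a type and less RNA per cell cannot be told apart, and the part of cell composition in the values below was not tested.

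The 89 genes together held a larger share of all counts in every adult pool than in any E15 pool. The share was 1.05%, 1.06% and 1.08% in E15 replicates 1, 2 and 3, and 1.52%, 1.5% and 1.54% in the adult replicates (1.06% ± 0.0156 against 1.52% ± 0.0192, SD, n = 3 pools, 1.43-fold), with 95% Wilson intervals no wider than ± 0.00562 percentage points, which cover counting error only. This share needs no scaling between libraries. In the adult, however, the 10 genes of highest mean count, with *Ttr* first among them, took 24.2% to 27.3% of all counts, against 4.86% to 5.90% at E15. With those 10 genes taken out of the totals, the share of the 89 genes was 1.10% to 1.14% at E15 and 1.99% to 2.09% in the adult, a 1.82-fold ratio. ATP synthase held the most counts, at 0.387% ± 0.00803 of the library at E15 and 0.538% ± 0.00841 in the adult, and complex I subunits followed at 0.241% ± 0.00139 and 0.365% ± 0.0065. The electron transfer flavoprotein genes moved furthest apart of the groups with more than 1 gene, from 0.0206% ± 0.000751 to 0.0529% ± 0.00139, a 2.58-fold ratio, whereas assembly factors were at 0.0563% ± 0.00339 and 0.0615% ± 0.002.

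**Figure D1:**
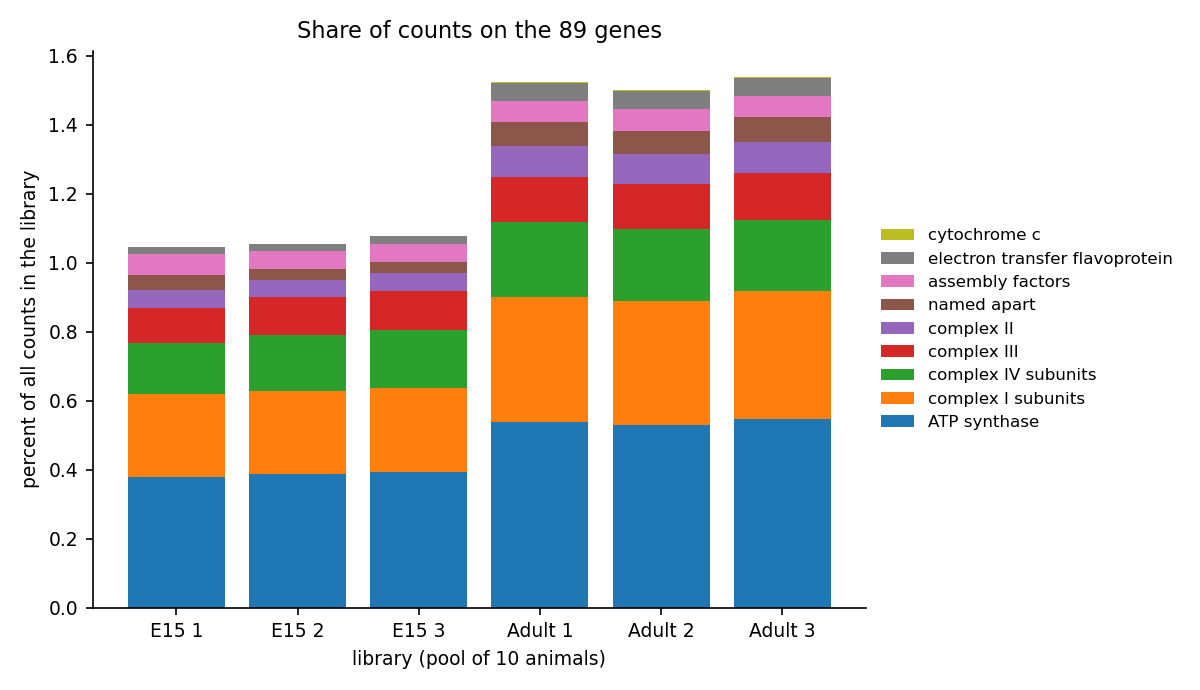
Share of all counts in a library (percent, y axis) that fell on the 89 genes in each pool (x axis), stacked by complex. The whole bars reach 1.05% to 1.08% in the E15 pools and 1.5% to 1.54% in the adult pools, with ATP synthase and complex I as the widest bands.

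Gene by gene, with library sizes adjusted by the trimmed mean of M values (TMM), 86 of the 89 genes were higher in the adult and 3 at E15. In edgeR's quasi-likelihood fit over all 16643 genes tested, 84 were called higher in the adult, where 29.3% of all genes tested were called in that direction, and 3 were called higher at E15, where 34.7% were. All members had been called by the authors on these pools, so nothing is read from those counts. Of the 10496 tested genes in the authors' table, which are the set the members came from, 44.9% were higher in the adult. Pools of the ages did not overlap for 88 members, and 70.1% of all genes tested had no overlap. Of the 10496 tested genes in the authors' table, 4439 were higher in the adult without overlap and 5413 at E15, so lack of overlap is usual in that set. The same holds for the groups described below. The median log2 fold change, adult over E15, was 1.19 for the members (2.28-fold) and -0.14 for all genes tested. The 86 genes that were higher in the adult had a median of 1.20, and all 4713 genes of the authors' table that were higher in the adult had a median of 1.34. Excess in the adult was above 4-fold for 12 members, between 2- and 4-fold for 45 and below 2-fold for 29.

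These values depend on how libraries are put on a common scale. With total counts as the only scaling, the median of all genes tested moved from -0.14 to -0.94 and that of the members from 1.19 to 0.38. Then 70 members were higher in the adult and 19 at E15, with 48 called in the adult, where 13.8% of all genes tested were called in that direction, and 4 at E15, where 58.9% were. Relative to the median of all genes, the members stood 1.33 log2 units higher with TMM and 1.32 with total counts. Scaling moves all genes by nearly the same amount, so this difference could hardly change. It also sets members chosen among called genes against all genes, and supports nothing. In the rest of the text levels are TMM-normalised CPM, fold changes come from the TMM fit, and members whose direction turned with total counts are named as such. Counts were not divided by transcript length, so a gene with more counts than another is not thereby the more abundant transcript.

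**Figure D2:**
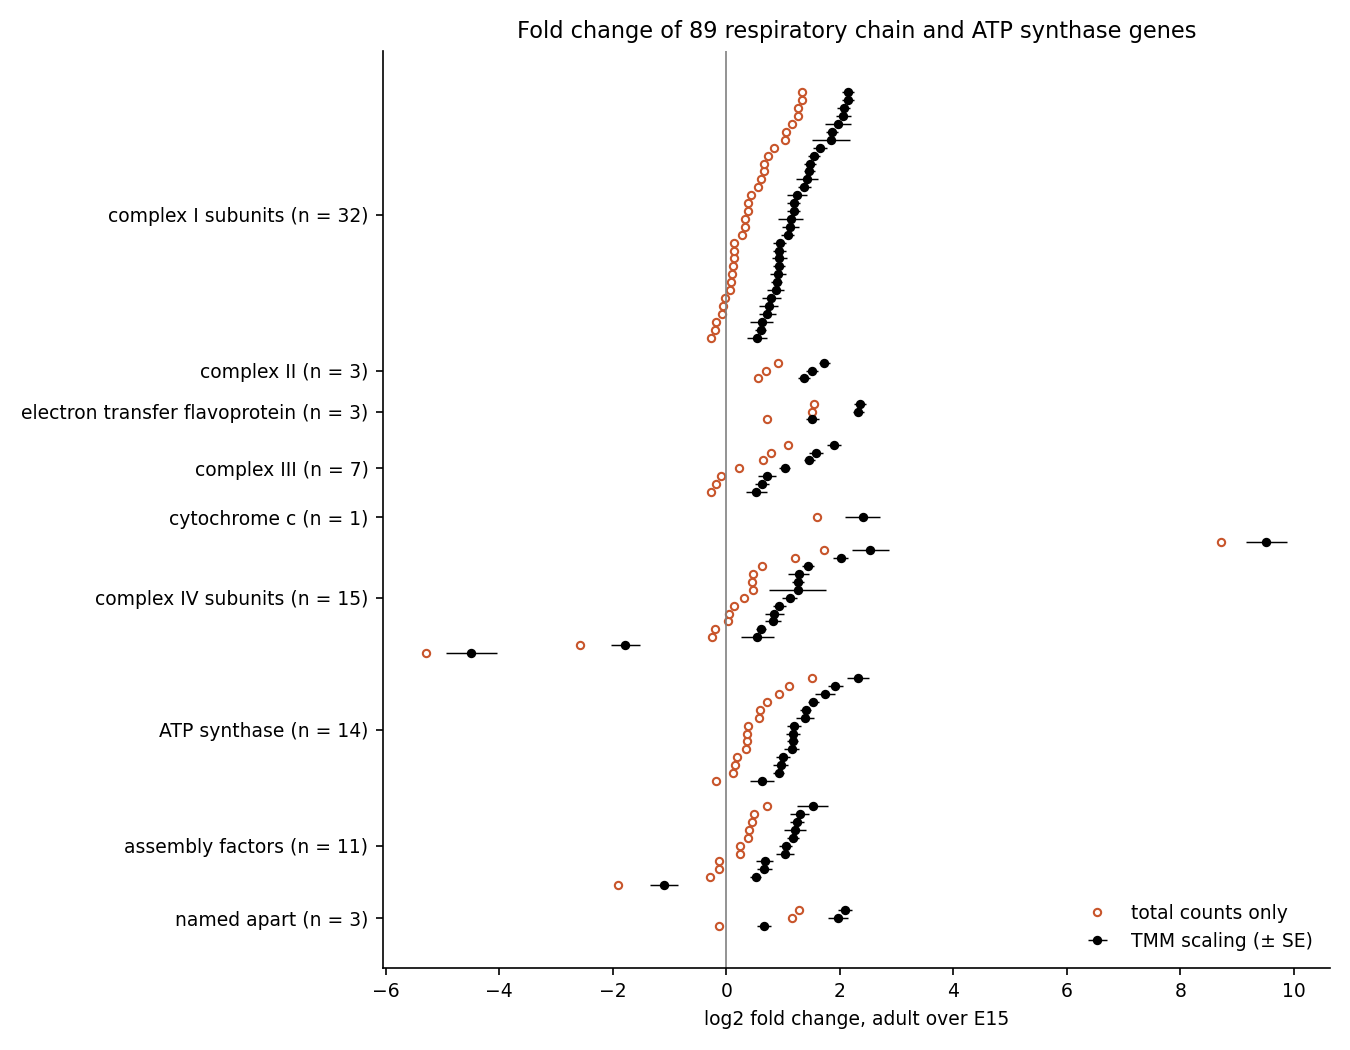
Log2 fold change, adult over E15 (x axis), of each of the 89 genes, in rows grouped by complex and ordered within each. Black points are TMM-scaled values with bars of ± 1 SE, and open points are values scaled by total counts only. Apart from *Cox8b* at 9.51, *Cox4i2* at -4.49, *Cox6b2* at -1.78 and *Sdhaf1* at -1.10, black points lie between 0.52 and 2.53.

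Complex I, the NADH dehydrogenase that feeds electrons into the chain, was represented by 32 subunit genes. All 32 were higher in the adult without overlap of the pools, with a median log2 fold change of 1.16 (range 0.54 to 2.14), but 6 of them, *Ndufs8*, *Ndufb8*, *Ndufa13*, *Ndufv1*, *Ndufb7* and *Ndufs5*, were below 0 with total counts as scaling. *Ndufs1*, the largest core subunit, which carries iron-sulfur clusters, was at 183, 142 and 156 CPM in E15 replicates 1 to 3 and at 700, 631 and 686 in the adult ones. Its fold change was 4.19 (log2 2.07, SE 0.12). *Ndufs8*, a core subunit that also binds iron-sulfur clusters, was at 42.6, 64.5 and 63.2 at E15 against 90.3, 84.9 and 72.9 in the adult, 1.46-fold higher (log2 0.54, SE 0.17). The number of *Ndufs1* counts per *Ndufs8* count, which needs no scaling, was 4.30, 2.21 and 2.47 at E15 against 7.75, 7.44 and 9.41 in the adult. This pair, with the largest and smallest fold change of the core subunits listed, was chosen after the values were seen. A difference between the ages in the ratio therefore follows from the choice. The fold changes of the other core subunits listed lay between, *Ndufv1* at 1.65-fold, *Ndufs3* at 2.59-fold and *Ndufv2* at 2.92-fold.

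Among the accessory subunits, which surround the core of complex I, *Ndufa1* and *Ndufa3* had the largest fold changes of the complex. *Ndufa1* was at 55.5, 55.8 and 58.0 at E15 against 268, 242 and 237 in the adult, and *Ndufa3* was at 33.7, 34.1 and 32.2 against 146, 142 and 153. Each was 4.41-fold higher in the adult (log2 2.14, SE 0.10), with pools of an age close together. *Ndufb11*, the accessory subunit with the most counts here, was at 97.7, 103 and 103 at E15 against 277, 272 and 290 in the adult, a 2.76-fold difference. *Ndufb6* was at 58.4 in E15 replicate 1 but at 20.5 and 25.5 in the other E15 pools, against 120, 136 and 119 in the adult. Its fold change was 3.59 with all pools and 5.45 without E15 replicate 1.

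Complex II, succinate dehydrogenase, links the citric acid cycle to the chain, and 3 of its subunit genes were listed. *Sdha*, the flavoprotein that oxidises succinate, was at 142, 148 and 158 at E15 against 520, 477 and 490 in the adult, 3.31-fold higher (log2 1.73, SE 0.10). The membrane anchors *Sdhc* and *Sdhd* were 2.86-fold and 2.59-fold higher. All 3 stayed above 0 with total counts as scaling, with log2 values of 0.56 to 0.92. The assembly factors of the complex went apart from each other. *Sdhaf2*, which helps attach the flavin to *Sdha* protein, was at 79.9, 69.8 and 67.9 at E15 against 167, 158 and 169 in the adult, 2.27-fold higher, whereas *Sdhaf1*, which serves the iron-sulfur subunit, was at 8.58, 15.4 and 11.7 at E15 against 5.14, 5.19 and 6.34 in the adult, 2.14-fold higher at E15 (log2 -1.10, SE 0.25). No adult pool of *Sdhaf1* reached the lowest E15 pool.

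The median fold change of the electron transfer flavoprotein genes was above that of each complex. *Etfa* and *Etfb*, its subunits, and *Etfdh*, the dehydrogenase that hands its electrons to ubiquinone, had a median log2 fold change of 2.32 (5.01-fold). *Etfa* was at 80.9, 77.4 and 83.2 at E15 against 416, 403 and 390 in the adult (log2 2.32, SE 0.10). *Etfdh* was at 39.9, 34.3 and 36.1 against 201, 176 and 187, 5.11-fold higher (log2 2.35, SE 0.11). *Etfb* was 2.86-fold higher, at 38.2 ± 0.957 against 109 ± 10.9 (SD, n = 3). With total counts as scaling all 3 were still called higher in the adult.

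Of complex III, which passes electrons from ubiquinol to cytochrome c, 7 genes were listed, all higher in the adult, with a median of 2.04-fold and a range of log2 values from 0.53 to 1.90. *Uqcrb*, a small matrix-side subunit, was at 28.0, 22.9 and 26.2 at E15 against 98.5, 96.4 and 92.2 in the adult, 3.73-fold higher. *Uqcrh*, the hinge protein beside cytochrome c1, was 3.00-fold higher, the core protein *Uqcrc2* 2.75-fold (130 ± 7.83 against 358 ± 17.4), and the Rieske iron-sulfur protein *Uqcrfs1* 2.04-fold (189 ± 8.96 against 385 ± 18.8). *Uqcrc1*, the partner of *Uqcrc2* in the core, was at 90.6, 140 and 156 at E15 against 193, 185 and 180 in the adult, 1.44-fold higher, and it turned below 0 with total counts as scaling, as did *Uqcr* and *Uqcrq*. *Uqcrb* counts per *Uqcrc1* count were 0.309, 0.163 and 0.168 at E15 against 0.512, 0.520 and 0.512 in the adult. These genes had the largest and smallest fold change of the complex, so a difference in their ratio follows from the choice of pair. *Cycs*, the gene of cytochrome c, had few counts, at 94, 61 and 51 at E15 against 145, 238 and 256 in the adult. Its level was 3.99, 2.44 and 2.08 against 10.7, 16.0 and 18.2 CPM (5.28-fold, log2 2.4, SE 0.31). RefSeq lists 10 further rat loci under the symbol *Cycs* with a copy suffix, and the authors discarded reads without a unique place, so its level is uncertain. Such copies are listed for 41 of the 89 members, with 11 each for *Ndufb4* and *Atp5l*, and how many reads were lost to them was not tested.

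Complex IV, cytochrome c oxidase, hands the electrons to oxygen. It was the group with the widest spread, from log2 -4.49 to 9.51 over 15 subunit genes. The median was 1.12 (2.17-fold), 13 genes were higher in the adult and 2 at E15. *Cox4i1* and *Cox6a1*, the widely expressed forms of their subunits, had the most counts in the group. *Cox4i1* was at 173, 233 and 236 at E15 against 484, 467 and 442 in the adult, 2.17-fold higher (log2 1.12, SE 0.13). *Cox6a1* was at 182, 229 and 229 against 434, 394 and 397, 1.92-fold higher. *Cox7b*, a small membrane subunit, was at 58.0 in E15 replicate 1, at 22.5 and 24.7 in the other E15 pools and at 216, 193 and 201 in the adult, 5.79-fold higher (log2 2.53, SE 0.32), and *Cox6c* was 4.04-fold higher. *Ndufa4*, once assigned to complex I by its name and known now as a subunit of cytochrome c oxidase, was at 278, 179 and 177 against 856, 774 and 846, 3.91-fold higher (log2 1.97, SE 0.18).

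The genes furthest from the rest belonged to pairs of isoforms of cytochrome c oxidase subunits. *Cox8b*, the form of subunit VIII that rodents are known to use in heart, skeletal muscle and brown fat, had 5, 3 and 0 counts in E15 replicates 1 to 3 and 1318, 1092 and 1178 in the adult ones. Its level was 0.212, 0.12 and 0 against 96.9, 73.6 and 84.0 CPM, a fitted fold change of 731 (log2 9.51, SE 0.36), or 1263 without E15 replicate 1, which held most of its E15 counts. *Cox8a*, the form found in most tissues, was at 94.4, 157 and 154 at E15 against 348, 318 and 316 in the adult, 2.42-fold higher (log2 1.28, SE 0.18). *Cox8b* therefore made up 0.225% (95% exact Clopper-Pearson interval 0.0729% to 0.523%), 0.0765% (0.0158% to 0.223%) and 0% (0% to 0.0972%) of the counts of both genes in the E15 pools. By the simpler limit of 3 counts, the 0 of 3793 counts in replicate 3 allows a share of up to 0.0791%. In the adult it made up 21.8% (20.7% to 22.8%), 18.8% (17.8% to 19.8%) and 21.0% (19.9% to 22.1%). A share compares pools and not the forms with each other.

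Markers of tissues known to use *Cox8b* were looked up beside it. Of 7 adipocyte markers, 2 had a name in the files used. The locus named for adiponectin, *Adipoq*, was at 0, 0.480 and 0.285 CPM at E15 against 245, 212 and 233 in the adult, and *Cidea* was at 0.127, 0.160 and 0.0407 against 1.98, 3.77 and 4.06. Their summed level was 0.127 to 0.639 at E15 and 216 to 247 in the adult. Of 13 striated muscle markers 4 had a name. *Acta1*, the skeletal muscle actin, was at 0.425, 0.919 and 0.814 at E15 against 0.441, 0.472 and 0.0713 in the adult. *Actc1*, the cardiac actin, was at 1.44, 2.12 and 1.91 against 0.514, 1.01 and 0.784, and *Tnnt3*, a fast muscle troponin, at 1.27, 0.879 and 0.977 against 0, 0.135 and 0. These 3 therefore had higher means at E15, opposite to *Cox8b*, with overlapping pools for *Acta1*, whereas *Myh2* was at 16.1, 19.3 and 13.9 at E15 against 73.3, 47.6 and 61.7 in the adult. The part of adipose or muscle tissue in the *Cox8b* counts was not tested.

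*Cox4i2*, the form of subunit IV known from lung and from low oxygen, went the other way. It had 144, 272 and 217 counts at E15 against 9, 5 and 2 in the adult, that is 6.12, 10.9 and 8.83 against 0.661, 0.337 and 0.143 CPM. It was 22.4-fold higher at E15 (log2 -4.49, SE 0.46) and 34.0-fold without adult replicate 1. Of the counts of *Cox4i1* and *Cox4i2* together, *Cox4i2* held 3.42% (2.89% to 4.02%), 4.46% (3.96% to 5.01%) and 3.61% (3.15% to 4.12%) at E15 and 0.136% (0.0624% to 0.259%), 0.0721% (0.0234% to 0.168%) and 0.0323% (0.00391% to 0.117%) in the adult. All 5 named endothelium markers were higher at E15 too, with a summed level of 269 to 329 at E15 and 28.1 to 45.9 in the adult, and their part in the *Cox4i2* counts was not tested.

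*Cox6b2*, the form of subunit VIb first described from testis, was at 21.2, 39.7 and 41.1 CPM at E15 against 8.89, 10.0 and 10.8 in the adult, 3.42-fold higher at E15 (log2 -1.78, SE 0.25). *Cox6b1*, the widespread form, was at 7.60, 14.6 and 17.9 at E15 against 21.2, 22.0 and 15.4 in the adult. It was the only member whose pools overlapped, with a log2 fold change of 0.55 (SE 0.29), and it was not called here. *Cox6b2* held 73.6%, 73.1% and 69.7% of the counts of both genes at E15 (72.1% ± 2.13, SD, n = 3) and 29.5%, 31.4% and 41.3% in the adult (34.1% ± 6.34). A locus without a family symbol, *LOC681754*, is described in the files as subunit 6B1 as well and held more counts than *Cox6b1*, at 51.7, 51.4 and 45.2 against 93.0, 100 and 98.7 CPM (1.97-fold). Which of these loci a read from subunit VIb came from is uncertain, and the shares above leave *LOC681754* out. With its counts added to those of *Cox6b1*, *Cox6b2* held 26.3%, 37.6% and 39.4% at E15 (34.4% ± 7.10, SD, n = 3) and 7.22%, 7.61% and 8.67% in the adult (7.83% ± 0.752).

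**Figure D3:**
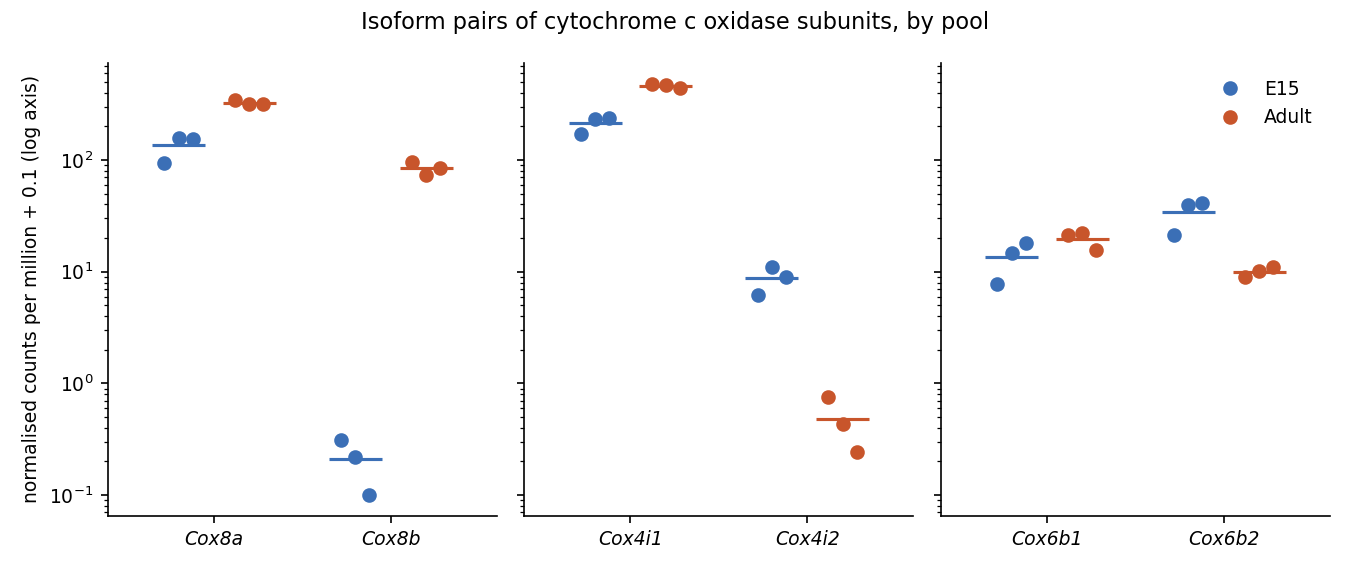
Normalised CPM plus 0.1 (y axis, log scale) of 3 isoform pairs of cytochrome c oxidase subunits, with a point for each pool and a line at the mean of the 3 pools of an age. *Cox8b* is at 0 to 0.212 at E15 and 73.6 to 96.9 in the adult, *Cox4i2* and *Cox6b2* are higher at E15, and only for *Cox6b1* do the ages overlap.

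The remaining isoform family of the complex was that of subunit VIIa. *Cox7a2*, the liver-type form, had only 10, 8 and 9 counts at E15 against 9, 14 and 15 in the adult (log2 1.26, SE 0.50) and was not called here. RefSeq lists 1 further locus under the symbol *Cox7a2* with a copy suffix, and reads without a unique place were discarded, so the level of *Cox7a2* is uncertain. *Cox7a2l2*, a member whose symbol has the same form, was at 42.4, 37.1 and 36.0 CPM at E15 against 110, 101 and 102 in the adult, 2.71-fold higher. *Cox7a2l*, a relative that takes part in joining complexes III and IV into supercomplexes, was at 153, 158 and 147 at E15 against 237, 230 and 232 in the adult, 1.53-fold higher (log2 0.61, SE 0.09), and it turned below 0 with total counts as scaling (log2 -0.20). *Cox7b* counts per *Cox7a2l* count were 0.378, 0.143 and 0.168 at E15 against 0.909, 0.841 and 0.863 in the adult. A gene of large and a gene of small fold change were paired here after their values were seen, so this difference follows from the choice.

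Start regions of *Cox8a*, *Cox8b* and *Cox6b2* are shown as examples. *Atp5o* (a stalk subunit of ATP synthase) and *Cox15* (a heme a synthesis enzyme) follow as members of the majority, chosen because they hold the matches described. For *Cox4i2*, also higher at E15, no start region was found, and that of *Sdhaf1* is not shown. A link between these letters and the fold changes was not tested. Each stretch runs from 120 bases before to 30 bases after the start of the gene in RefSeq, build GRCr8, read 5′ to 3′ on the gene's strand, and lies at chr1:213833594-213833743 (minus strand), chr1:205408244-205408393 (minus strand), chr1:78122751-78122900 (plus strand), chr11:44657454-44657603 (minus strand) and chr1:252571442-252571591 (minus strand) in the order given. The authors' build is not the one used here. Capitals mark exact matches, on either strand, to letters known from binding sites of factors of mitochondrial genes or from core promoters.
Cox8a: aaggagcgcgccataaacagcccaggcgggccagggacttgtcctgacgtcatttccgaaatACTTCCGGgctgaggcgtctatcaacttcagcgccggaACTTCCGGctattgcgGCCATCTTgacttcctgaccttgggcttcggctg
Cox8b: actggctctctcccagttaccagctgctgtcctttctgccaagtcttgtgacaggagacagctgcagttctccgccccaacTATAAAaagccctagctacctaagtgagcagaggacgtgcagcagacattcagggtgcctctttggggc
Cox6b2: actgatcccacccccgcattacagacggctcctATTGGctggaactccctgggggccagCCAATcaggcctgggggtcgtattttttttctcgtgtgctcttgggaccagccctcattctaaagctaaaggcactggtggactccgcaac
Atp5o: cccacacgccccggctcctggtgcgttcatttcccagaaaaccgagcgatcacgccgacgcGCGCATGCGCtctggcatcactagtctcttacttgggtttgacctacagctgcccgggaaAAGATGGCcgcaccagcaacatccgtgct
Cox15: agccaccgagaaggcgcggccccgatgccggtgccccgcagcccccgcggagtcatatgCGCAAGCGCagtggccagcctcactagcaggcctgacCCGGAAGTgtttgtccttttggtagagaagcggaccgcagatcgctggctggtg
In *Cox8a* the capitals are a pair of ETS-type matches (CCGGAAGT, the family of GABP), 58 and 20 bases before the start, and a YY1-type match (AAGATGGC) 4 bases before it. *Cox8b* has neither, and its capitals are a TATA match (TATAAA) 39 bases before the start. *Cox6b2* holds CCAAT matches 87 and 61 bases before the start. *Atp5o* has an NRF-1-type match 59 bases before the start, with an overlapping match on the other strand, and its YY1-type match begins just after the start and contains an ATG. *Cox15* has an NRF-1-type match 61 bases and an ETS-type match 24 bases before the start.

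A start region of 300 bases (250 before and 50 after the start) was found for 78 of the 89 genes. The NRF-1-type letters (GCGCNTGCG) occurred in 22 of the 78 (28.2%), where 8.07% of the start regions of 18999 protein-coding genes hold them. The ETS-type letters occurred in 13 (16.7%, against 4.99% of all) and the YY1-type letters in 16 (20.5%, against 3.92%). At least 1 of these motifs was present in 43 of the 78, 55.1%, against 15.3% of all genes. The rest held none of them, as was the case for *Cox8b* but also for *Ndufa1*, *Cox7b* and *Uqcrc2*, all higher in the adult. TATAAA occurred in 5 (6.41%, against 13.1%), CCAAT in 25 (32.1%, against 38.4%) and the letters of the estrogen-related receptor site (TCAAGGTCA) in *Sdhd* alone (1.28%, against 0.353%). The median GC content was 58.2% over members and 55.3% over all, and the motifs were not compared at equal GC content. These are matches of letters and were not measured as binding.

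ATP synthase was represented by 14 genes, all higher in the adult without overlap, with a median log2 fold change of 1.18 (2.27-fold, range 0.63 to 2.32). *Atp5b* and *Atp5a1*, the beta and alpha subunits of the catalytic head, had the most counts of all members. *Atp5b* was at 955, 1055 and 1051 at E15 against 2406, 2165 and 2317 in the adult, 2.25-fold higher (log2 1.17, SE 0.10). *Atp5a1* was at 524, 597 and 635 against 1553, 1523 and 1545, 2.63-fold higher (log2 1.40, SE 0.10). *Atp5i*, a small subunit of the membrane part known for its role in joining synthase dimers, had the largest fold change in the complex, at 112, 72.8 and 63.9 against 453, 392 and 400 (5.0-fold, log2 2.32, SE 0.20). *Atp5d*, the delta subunit of the central stalk, was at 87.3, 157 and 159 against 212, 225 and 187, 1.55-fold higher, and was the 1 gene of the complex that turned below 0 with total counts as scaling. *Atp5i* counts per *Atp5d* count were 1.29, 0.464 and 0.403 at E15 against 2.14, 1.74 and 2.14 in the adult. The pair joins the largest and smallest fold change of the complex, so a difference in this ratio follows from the choice.

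Subunit c, the proton-carrying ring of the synthase, is made from several genes that encode the same mature protein. *Atp5g1* was at 21.3, 25 and 24.7 at E15 against 98.1, 91.1 and 79.6 in the adult, 3.78-fold higher (log2 1.92, SE 0.13). A locus listed under a protein name, *AT5G3_RAT*, is described as a lipid-binding protein of ATP synthase and held more counts, at 230, 210 and 238 against 611, 558 and 584 (2.59-fold). It was among 8 loci described in the files as chain or synthase subunits under other names, with *LOC681754* and *AT5G3_RAT* as those with the most counts. All 8 were called higher in the adult, where 29.3% of all genes tested were called in that direction. In the authors' table, from which these loci come too, 4379 of the 10496 tested genes were called higher in the adult. With total counts as scaling 3 of the 8 were still called, where 13.8% of all genes tested were called in that direction, and *LOC100365025* turned below 0 (log2 -0.19). A pair of genes that carry an Atp5 symbol was kept apart, because RefSeq names them as others. *Atp5s* (*Dmac2l*) was at 11.1, 10.6 and 10.9 against 43.1, 46.7 and 48.5, 4.25-fold higher, and *Atp5sl* (*Dmac2*, an assembly factor of complex I) was at 31.3, 38.0 and 37.4 against 57.2, 53.3 and 59.6, 1.59-fold higher and below 0 with total counts as scaling.

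The 11 assembly factors, which insert cofactors or join subunits and are no part of the finished complexes, had a median log2 fold change of 1.05, and 10 of them were higher in the adult. *Ndufaf4*, an assembly factor of complex I, was at 24.3, 11 and 12 at E15 against 45.1, 48.5 and 42.3 in the adult, 2.87-fold higher (log2 1.52, SE 0.27). *Cox17*, a copper chaperone for cytochrome c oxidase, was at 9.05, 13.2 and 10.7 against 26.0, 28.2 and 26.6, 2.45-fold higher. *Cox15* was 2.07-fold higher (61.2 ± 7.77 against 126 ± 3.10). *Surf1*, which acts early in the building of complex IV, was at 114, 130 and 129 at E15 against 176, 177 and 180 in the adult, 1.43-fold higher (log2 0.52, SE 0.10). With total counts as scaling *Surf1* was called higher at E15 instead (log2 -0.29), and *Sco1* and *Cox11*, which deliver copper to the oxidase, were also below 0.

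The study's own type of test, an exact test with a common dispersion, was rerun to see which members lay close to its limit. The members nearest to it were *Surf1* (adjusted value 0.0280), *Cox6b1* (0.0252) and *Uqcrc1* (0.0238). These values place the members inside the rule and are not evidence of a difference, and genes just outside the rule carry no symbol in the files used.

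Members differed among E15 pools more than among adult pools. Over the 88 members with a mean count above 100, the log2 ratio of a pool to the mean of the other pools of its age had an SD of 0.473 in E15 replicate 1, of 0.266 and 0.299 in the other E15 pools and of 0.131 to 0.201 in the adult pools. That limit was set on the mean over all 6 libraries. *Cox8b*, with 5, 3 and 0 counts at E15, and *Cox4i2*, with 9, 5 and 2 in the adult, therefore passed it through the other age. Ratios of such few counts widen the SDs, as with *Cox8b* at -1.41 in E15 replicate 3. In E15 replicate 1, 24 of the 88 deviated by more than 0.5 log2 units (27.3%), and so did 27.4% of the 11067 genes with a mean count above 100, so the spread of the members in that pool was near that of all genes. In E15 replicate 3 the share was 10.2% of the members and 4.02% of all genes, in E15 replicate 2 it was 6.82% and 8.16%, and in the adult pools it was 1.14% to 2.27% of the members and 7.72% to 8.46% of all genes. The members highest in this pool were *Ndufb6* (1.34), *Cox7b* (1.29) and *Ndufaf4* (1.07), and the lowest were *Cox6b1* (-1.08), *Cox6b2* (-0.93), *Atp5d* (-0.85) and *Cox8a* (-0.72). The median deviation of the members in it was 0.03. Without E15 replicate 1 the members had a median log2 fold change of 1.18 with 84 called in the adult and 3 at E15.

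**Figure D4:**
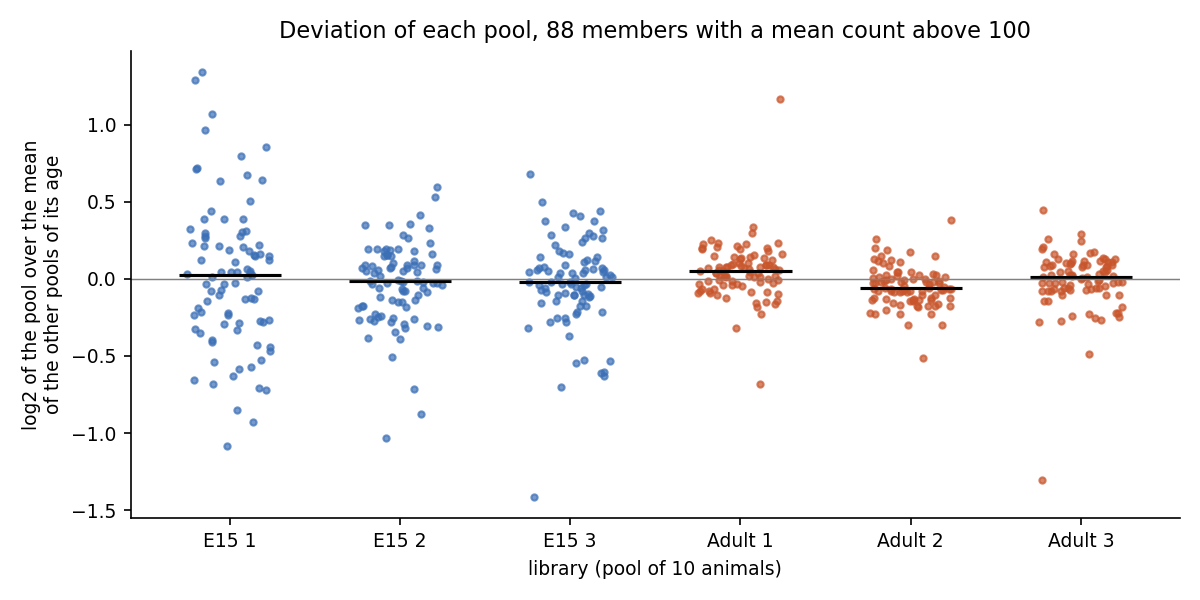
Log2 ratio of each pool to the mean of the other pools of its age (y axis) in the 6 libraries (x axis), with a point for each of the 88 members with a mean count above 100 and a line at the median. Points of E15 replicate 1 spread from -1.08 to 1.34, while in each adult pool all but 1 or 2 of the 88 points lie within 0.5. The mean count is over all libraries, so the points of *Cox8b* at E15 and of *Cox4i2* in the adult rest on few counts.

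Genes known to control the chain did not all move with it. Of a list of 17 regulators, 11 had a name in the files used, and 6 were higher in the adult and 5 at E15. *Ppargc1a*, the coactivator PGC-1 alpha that drives mitochondrial gene expression, was at 7.39, 6.75 and 7.16 at E15 against 56.9, 56.9 and 58.9 in the adult, 8.10-fold higher (log2 3.02, SE 0.12). *Esrra*, the estrogen-related receptor that works with it, was at 17.8, 27.1 and 27.0 against 93.3, 114 and 97.3, 4.24-fold higher. *Nrf1*, the activator whose site type is marked in *Atp5o* and *Cox15*, was at 23.7, 30.8 and 32.1 at E15 against 11.9, 10.6 and 10.1 in the adult, 2.66-fold higher at E15. *Pprc1*, a relative of *Ppargc1a* known from growing cells, was at 45.3, 50.1 and 50.1 against 18.1, 16.4 and 18.7, 2.74-fold higher at E15, and *Yy1* was 1.84-fold higher at E15. *Gabpa*, of the ETS family, was at 164, 98.0 and 97.0 against 167, 184 and 202, and its log2 value turned from 0.62 to -0.18 with total counts as scaling. The mitochondrial DNA polymerase subunits *Polg* and *Polg2* were 2.01- and 1.92-fold higher at E15. *Tfb1m* and *Tfb2m*, named as mitochondrial transcription factors, were 1.75- and 1.92-fold higher in the adult. With total counts as scaling *Tfb1m* and *Tfb2m* were at log2 0.003 and 0.14, and neither was called. *Hif1a*, the oxygen-regulated factor, was 1.65-fold higher in the adult and turned to -0.08 with total counts. These genes carry a name only because the authors called them on these pools, so no count among them is a test.

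**Figure D5:**
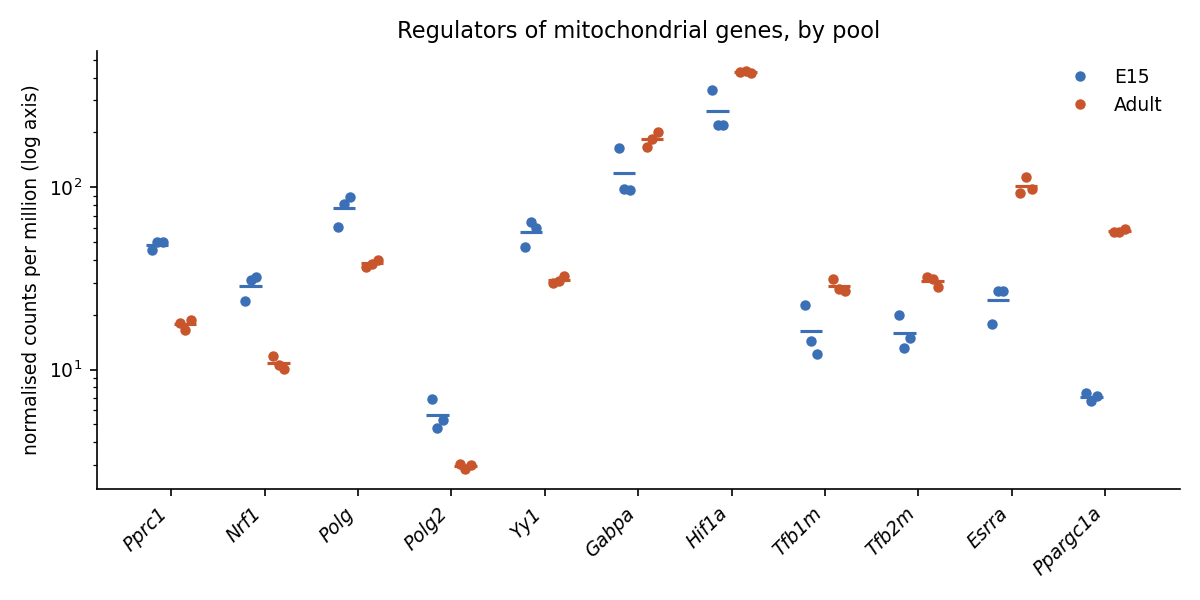
Normalised CPM (y axis, log scale) of 11 regulators of mitochondrial genes, with a point for each pool and a line at the mean of the 3 pools of an age, ordered by fold change. *Pprc1* and *Nrf1* at the left are higher at E15, and *Esrra* and *Ppargc1a* at the right are higher in the adult, without overlap of the ages.

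Other genes of the pathway were described from lists in the same way. Of 21 further assembly and translation factors 6 had a name, and all 6 were higher in the adult, with a median log2 fold change of 0.86. *Tmem70*, an assembly factor of ATP synthase, was at 21.2, 18.9 and 21.2 against 83.6, 81.8 and 81.4, 4.02-fold higher. *Atpif1*, the inhibitor of the synthase, was 1.5-fold higher and turned below 0 with total counts (log2 -0.22), as did *Atpaf1* and *Ttc19*. Of 9 ubiquinone synthesis genes 4 had a name, and all 4 were higher in the adult, although *Coq6* turned below 0 with total counts (log2 -0.14). *Coq9* was at 44.1, 53.6 and 61.4 against 140, 136 and 139, 2.61-fold higher, and *Pdss2*, which makes the side chain of ubiquinone, was 3.02-fold higher.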

How the data were processed

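RNA of whole lateral ventricular choroid plexus was compared between 3 E15 and 3 adult pools. The authors trimmed reads, mapped them (Bowtie 0.12.7) to Ensembl's rat genome, discarded reads without a unique place and used HTSeq 0.4.7p4 to count the others on nuclear genes. The deposited values are raw counts per gene, without normalization. A table by the authors, made with edgeR 2.4.0, gives names and comparison columns (fold changes, abundance, p-values) for the genes they called. Only its names and descriptions were used. The members and lists were chosen with earlier results of these data known.

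Genes with more than 10 counts in all were fitted with edgeR 4.0.16 (R 4.3.3, TMM factors, quasi-likelihood test, Benjamini-Hochberg threshold 0.05). The method was also run on simulated counts in which a small part of the genes was changed, in both directions. That setting does not test the scaling of libraries that differ in as many genes as these. DESeq2 1.42.0, limma 3.58.1, other scalings and filters, a replicate block and leaving out each pool were alternatives. TMM factors were 1.32 to 1.33 at E15 and 0.735 to 0.773 in the adult. The labels only number the replicates, the paper describes them as pools, and p-values measure the spread between pools. Named with values were, per complex, the 2 genes with the highest mean and the 2 with the largest change, all members higher at E15 or with overlapping pools, isoform partners and those nearest the exact test's limit. Other members given with values, and the ratios of counts between subunits, were chosen after their values were seen. Symbols were matched to RefSeq (GRCr8) for all 89 genes, older ones through synonyms. 0 columns of values lacked a sample.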

Additional observations from a re-analysis of the deposited data

How the results depend on the processing

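With total counts only, the adult calls among the members were 48 instead of 84 and the median log2 fold change of the members was 0.38. It was 0.72 when the totals were taken without the top 10 genes and 1.06 with upper quartile factors, against 1.19 with TMM. With total counts only, calls over all genes were 2292 in the adult and 9799 at E15, against 4879 and 5773, and without those genes the adult ones were 3196. The scaling by total counts turned 16 members below 0, namely *Surf1* (-0.29), *Uqcrc1* (-0.28), *Ndufs8* (-0.27), *Cox6b1* (-0.26), *Cox7a2l* (-0.20), *Ndufb8* (-0.20), *Ndufa13* (-0.18), *Uqcr* (-0.18), *Atp5d* (-0.18), *Atp5sl* (-0.14), *Sco1* (-0.13), *Cox11* (-0.13), *Uqcrq* (-0.088), *Ndufv1* (-0.080), *Ndufb7* (-0.062) and *Ndufs5* (-0.014). No other alternative that was run turned a member.

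Leaving out each pool in turn gave 81 to 84 members called in the adult and 3 at E15, with a median of 1.18 to 1.25. *Atp5d*, *Ndufa13*, *Ndufs8* and *Uqcrc1* lost their call without adult replicate 1, *Atp5d* without adult replicate 2 and *Ndufa13* without E15 replicate 3. *Cox6b1* gained a call without E15 replicate 3, and *Cox7a2* without adult replicate 1. With 3 pools, leaving 1 out cannot move a mean isoform share by 1 SD, so only values are given. Without E15 replicate 1 the *Cox8b* share at E15 was 0.0383% and not 0.1%. Without adult replicate 1 the *Cox4i2* share in the adult was 0.0522% and not 0.0803%. With *LOC681754* counted as *Cox6b1*, an alternative chosen after seeing the data, the *Cox6b2* share was 34.4% at E15 and 7.83% in the adult, in place of 72.1% and 34.1%.

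Replicate numbers were not found to pair the pools, since deviations of same-numbered pools correlated at -0.038, 0.0052 and -0.11. With a replicate block 84 members were called in the adult and 3 at E15, with a median of 1.19, and 9928 of all genes were called in place of 10652. Shares per kilobase were not run, as no transcript lengths were used here. Levels were not compared between genes for the same reason. Low counts limit *Cox7a2*, *Cycs* and the low side of *Cox8b* and *Cox4i2*. For *Cox7a2* and *Cycs* the part of reads lost to copies was not tested.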

Other observations

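Genes outside the chain for ion transport in fluid secretion, or for the use and transport of ATP, were also described, as values. *Atp1b1*, a beta subunit of the sodium pump, was at 61.4, 63.5 and 58.1 normalised CPM at E15 against 4423, 4220 and 4383 in the adult, 71.2-fold higher. *Slc12a2*, the sodium, potassium and chloride cotransporter, was 7.29-fold higher. *Ckmt1*, the mitochondrial creatine kinase that passes on phosphate from new ATP, had 7, 7 and 6 counts at E15 against 304, 354 and 304 in the adult (80.8-fold), and *Ckb*, its cytosolic counterpart, was 8.40-fold higher. The ADP/ATP carriers *Slc25a4* and *Slc25a5* were 2.82- and 2.75-fold higher.

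Of 15 genes for other mitochondrial proteins 10 had a name, 9 of them higher in the adult with a list median log2 fold change of 0.93. *Immt*, which shapes the cristae that hold the chain, was at 113, 106 and 110 against 373, 331 and 352, 3.21-fold higher. *Tomm20* of the import pore, *Timm23* and the chaperone *Hspd1* were 1.57-, 1.68- and 1.72-fold higher, and each turned below 0 with total counts as scaling (log2 -0.15, -0.06 and -0.03). *Phb2*, a prohibitin of the inner membrane, was 1.6-fold higher at E15, at 73.1, 89.4 and 88.9 against 54.1, 53.9 and 48.6. All of these carry a name only because the authors called them on these pools.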
